A study of Mus musculus with 64 samples.

Results

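Long intergenic noncoding RNAs (lincRNAs) were followed through restimulation of mouse Th1-cultured CD4 T cells in which the genes of Roquin, Regnase-1 or both were targeted. The set was the 80 rows of the deposited table, of 1222 rows with the biotype lincRNA and 23134 genes in all, whose group mean reached 100 normalized counts in at least 1 of 16 groups, leaving out Gm26924 and Gm26561. The members were thus chosen by their deposited group means, so the level of a member in its highest group is a description. Just inside the threshold were Gm26825 with a highest group mean of 102 and Gm5544 with 103.5, and just outside it were AI480526 with 99.6 and 2900056M20Rik with 97.5. Of the 80, 57 had a mean of at least 100 over all 64 libraries, a limit blind to the groups, and counts of called members refer to these 57. The other 23 passed mainly through 1 or a few groups and are given by their values alone.

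Splenic CD4 T cells came from C57BL/6J mice of 4 genotypes, all of which carried Cd4-Cre-ERt2, a tamoxifen-dependent Cre made under Cd4 control. DKO cells carried Rc3h1/2 fl/fl, KO cells Zc3h12a fl/fl, TKO cells both sets of floxed alleles, and WT cells Cre alone. All cells were treated with 4-OH-tamoxifen, activated in Th1 conditions for 40 h, kept in IL-2 medium for 2 days, then given anti-CD3 and anti-CD28 again for 1, 2 or 4 h or left untreated (0 h). Each of the 16 groups had 4 libraries. Roquin-1 and Roquin-2 (Rc3h1, Rc3h2) and Regnase-1 (Zc3h12a) are RNA-binding proteins that promote the decay of mRNAs, many of them encoding T cell activation factors.

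LincRNAs are spliced or unspliced transcripts with no recognised protein product. Some act in the nucleus, such as Malat1 in nuclear speckles, Neat1 as the scaffold of paraspeckles and Xist on the inactive X chromosome. Others are host transcripts from which microRNAs (miRNAs) or small nucleolar RNAs (snoRNAs) are cut, and the host level need not equal the level of the small RNA. Many of the rest are known by a clone name alone and have no established role.

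Of the 80 file identifiers, 75 were found in GENCODE M21 on GRCm38, where 58 are still lincRNAs, 8 are antisense, 4 processed transcripts, 2 bidirectional promoter transcripts, and 1 each (Fam169b, Gm10524, Snhg7's identifier) a protein-coding gene, an unconfirmed transcript and a snoRNA. The 5 without an M21 entry, Gm20645, RP24-312B12.1, Snhg1, Snhg4 and Gm26567, are given no coordinates here. Exons of 24 members overlapped exons of a gene on the opposite strand and those of 8 overlapped exons on the same strand, and with no strand setting stated those reads could not be told apart.

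Of the 80 members, 12 hold a miRNA gene on their own strand, and RefSeq (GRCm38.p6) gave mature sequences for 8 of these hosts. The sequences below belong to 3 hosts that passed at every time of restimulation in WT cells and whose miRNAs are well studied in lymphocytes, Gm26667 (Mir155hg in M21, chr16:84703167-84715245, plus strand), Mir17hg (chr14:115042879-115046727, plus strand) and A430104N18Rik (Mir142hg in M21, chr11:87755577-87757270, plus strand). Capitals mark the seed, bases 2 to 8 from the 5′ end, which pairs with target mRNAs.
miR-155-5p: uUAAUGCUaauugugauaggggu
miR-17-5p: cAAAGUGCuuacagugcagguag
miR-20a-5p: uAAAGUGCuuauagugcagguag
miR-18a-5p: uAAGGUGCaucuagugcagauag
miR-19a-3p: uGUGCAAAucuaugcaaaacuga
miR-19b-3p: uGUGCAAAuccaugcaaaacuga
miR-92a-3p: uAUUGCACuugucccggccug
miR-142a-5p: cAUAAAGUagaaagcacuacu
miR-142a-3p: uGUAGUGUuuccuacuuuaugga
Within the Mir17hg cluster, miR-17-5p and miR-20a-5p share 1 seed and miR-19a-3p and miR-19b-3p share another.

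The snoRNA hosts among the members are known for transcripts that often begin with a pyrimidine run, as ribosomal protein mRNAs do. RefSeq start windows were read for 44 members. The 30 bases before and 30 bases (capitals) after the annotated start are shown for 4 Snhg hosts for which a window was read. Each of them rose at 2 and 4 h in the time course, as did Snhg4 and Snhg6, for which none was read.
Snhg1 (chr19:8723237-8723536, plus strand): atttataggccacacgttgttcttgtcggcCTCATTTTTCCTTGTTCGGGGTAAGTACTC
Snhg12 (chr4:132308428-132308727, plus strand): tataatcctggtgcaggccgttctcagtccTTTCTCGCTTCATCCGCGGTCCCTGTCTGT
Snhg7 (chr2:26640195-26640494, minus strand): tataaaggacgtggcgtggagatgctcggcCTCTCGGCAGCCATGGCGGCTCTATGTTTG
Snhg5 (chr9:88522848-88523147, minus strand): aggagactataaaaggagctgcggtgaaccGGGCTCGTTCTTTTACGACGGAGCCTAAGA
Coordinates are those of the 300-base windows on GRCm38.p6. From the annotated start, the unbroken run of C or T is 6 bases in Snhg12, 5 in Snhg7, 3 in Snhg1 and 0 in Snhg5. Such a run of at least 5 bases begins 4.44% of all 32851 RefSeq windows. Of 26 members whose RefSeq start lay within 100 bases of the M21 start, 1 had such a run. The run is 0 bases in 2700038G22Rik and 3 in 2900076A07Rik, which also hold snoRNA genes and are not shown.

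Libraries held 5369766 to 11664963 reads (median 7720321), and the 80 members took 0.461 to 1.53% of them. The 2 excluded loci were larger, with Gm26924 at 8.44 to 16.4% and Gm26561 at 3.93 to 5.53% of reads. T cell markers (7 of 7 detected) summed to 532 to 1491 counts scaled to a common library total (CPM), NK markers to 0 to 1.2 CPM and erythroid markers to 0 to 3.4 CPM. CD8 T markers (2 of 2) summed to 3.9 to 56 CPM, and in KO cells 1 library at each time held the highest of these sums, 41.4 CPM or more. Myeloid markers (4 of 6 in the table at a median of 1 CPM or more) summed to 50.3 to 126.9 CPM. The myeloid sum was 95.5 to 126.9 CPM in TKO, 96.3 to 114.7 CPM in KO, 75.3 to 91.9 CPM in DKO and 66.8 to 83.6 CPM in WT libraries at 0 h. It was 97.8 to 118.3, 84.3 to 88.3, 62.1 to 76.1 and 50.3 to 54.3 CPM in TKO, KO, DKO and WT libraries at 4 h. At every time all TKO and KO libraries lay above all WT libraries in this sum. Most of the sum was Cst3 (up to 54.23 CPM) and Ctss (up to 69.62 CPM). Lyz2 and Csf1r were at most 0.8 CPM each, and Cd68 and Itgam at most 6.9 CPM each. The T cell sum in WT libraries was 532 to 765.5 CPM at 4 h and 1178 to 1287.9 CPM at 0 h. B cell markers (2 of 6 at a median of 1 CPM or more) ranged widely, from 16.1 to 531.3 CPM, almost all of it Ighm (12.0 to 525.8 CPM), while Cd79a, Cd79b, Ms4a1, Cd22 and Pax5 were at most 5.86 CPM each. At 0 h the B cell sum was 370.8 to 531.3 CPM in TKO, 235.4 to 322.9 CPM in KO, 225.0 to 279.7 CPM in DKO and 136.0 to 231.8 CPM in WT libraries, and at 2 and 4 h it was below the 0 h range in every genotype. The part of these markers in the results on genotype and time was not tested. Rc3h1 was lower in DKO than in WT cells at every time, by 0.32 to 1.17 on the log2 scale, and in TKO cells at 1, 2 and 4 h, by 0.53 to 0.98. Rc3h2 was lower in none of these comparisons, being higher in TKO cells at every time by 0.37 to 0.53. Zc3h12a was lower in KO and TKO cells at 1 and 2 h but not at 0 or 4 h, and it was higher in TKO cells at 0 h (0.60) and in DKO cells at 0, 2 and 4 h (1.78, 0.65 and 1.17). The floxed exons are not named in the labels, and a count over a whole gene also takes reads outside a deleted part.

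Xist split the libraries. It was at 4341 to 12536 normalized counts (median 7479) in 24 libraries and at 0 to 10.4 (median 2.2) in the other 40. The split ran exactly with the Y-linked genes Ddx3y, Kdm5d, Uty and Eif2s3y, whose sum was 3.4 to 18.9 in the 24 libraries and 1288 to 3161 in the 40. Xist was high in 1 of 4 libraries of every KO and TKO group and in 2 of 4 libraries of every DKO and WT group, so KO and TKO groups differed from WT groups in this makeup, and no genotype difference was read from Xist. In the libraries with Xist, its median was 6787 at 0 h, 9486 after 1 h, 8267 after 2 h and 5578 after 4 h, with 6 libraries at each time. Tsix, the antisense partner of Xist, followed it with a median of 33.3 in the 24 libraries against 8.0 in the 40, and since the strand setting is not stated the 2 could not be separated. The 24 libraries were uneven in Tsix. In each WT and DKO group 1 library held 161.4 to 507.4, while the other libraries with Xist held 19.3 to 39.7. No KO or TKO library held more than 36.1, so these groups differed from WT groups in this too. Ftx, an X-linked activator of Xist in mouse and host of miR-374b and miR-421, overlapped between the 2 sets of libraries, at 119 to 424 normalized counts in the 24 and 74.8 to 332 in the 40. Within 10 of the 16 groups, among them all 4 groups at 4 h, every library with Xist held more Ftx than every library without it. Adding a term for Y-linked reads to the model changed none of the 24 counts of called members by more than 1.5 times.

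**Figure D1:**
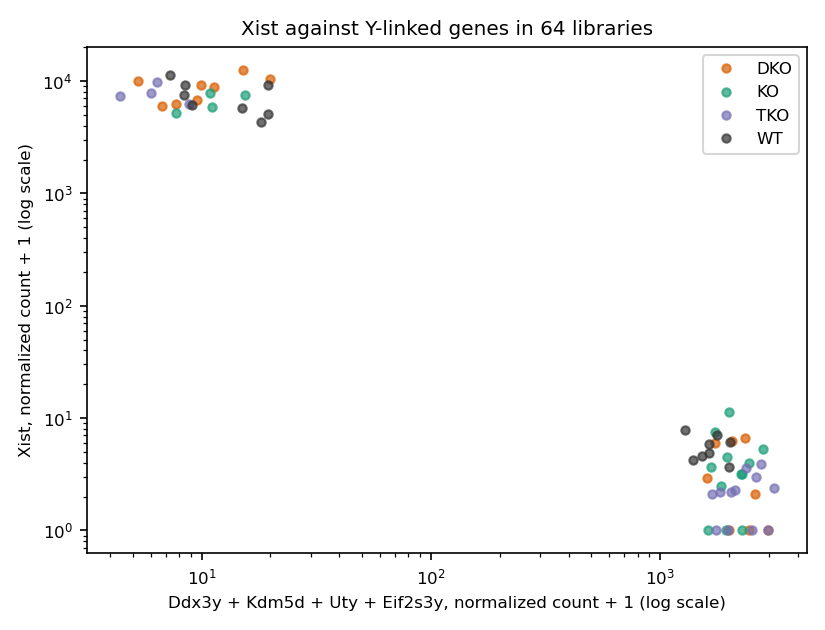
Xist (vertical) against the sum of 4 Y-linked genes (horizontal), as normalized counts + 1 on log axes, 1 point per library, coloured by genotype. The 24 libraries with Xist and the 40 with Y-linked reads form 2 groups with none between them.

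In WT cells restimulation moved most of the members, and in such bulk libraries fewer cells of a type and less RNA per cell cannot be told apart. Of 57, 34 passed at 1 h (25 higher, 9 lower), 39 after 2 h (28 higher, 11 lower) and 42 after 4 h (26 higher, 16 lower) against 0 h, in limma with Benjamini-Hochberg adjustment over 16140 genes. The background over all tested genes was 31.1% at 1 h, 52% at 2 h and 51.7% at 4 h. Among the 8137 genes with a mean of at least 100, as the 57 have, it was 43.7%, 69.9% and 70.7%, so at 2 h (68.4%) and 4 h (73.7%) the members' share was close to that of genes of like abundance. The median log2 change of the 57 was 0.37 after 1 h, 0.36 after 2 h and 0.29 after 4 h, beside −0.10, −0.16 and 0.01 over all genes tested and 0.12, 0.20 and 0.05 over those of like abundance. Higher at all 3 times were 18 members, lower at all 3 were 6, and 9 passed at no time.

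The host of miR-155, a miRNA known for its induction in activated lymphocytes, had the largest change of the 57. Gm26667 (Mir155hg) was at 3.6, 3.5, 14.9 and 15.3 normalized counts in the WT libraries at 0 h, at 852, 639.7, 290.3 and 272 after 1 h, at 531, 590.2, 1177 and 952 after 2 h, and at 360.3, 346, 406 and 527 after 4 h. Every restimulated library lay far above the untreated ones, which held 3 to 15 reads each, so the fold rests on few reads in the denominator. The log2 change was 5.74 ± 0.46 (SE, n = 4 each) at 1 h, 6.49 ± 0.46 after 2 h and 5.57 ± 0.46 after 4 h, all with limma adjusted p of 3.7e-15 or less. Mir17hg, whose cluster is known to promote lymphocyte proliferation, was at 137, 149, 112 and 60.0 normalized counts at 0 h, 731, 926, 560.1 and 563 after 1 h, 576, 688, 813 and 936 after 2 h, and 476, 402, 537 and 502 after 4 h. Its log2 change was 2.64 ± 0.23, 2.76 ± 0.23 and 2.13 ± 0.23 at the 3 times, and restimulated libraries did not overlap untreated ones. A430104N18Rik (Mir142hg), host of a miRNA found throughout blood cells, went both ways. It was at 402 to 438 normalized counts at 0 h, 547 to 629.5 after 1 h, 293 to 350.0 after 2 h and 201 to 283 after 4 h. It rose at 1 h (log2 0.48 ± 0.14, limma adjusted p = 0.0074) and fell at 2 h (−0.44 ± 0.14, adjusted p = 0.0081) and 4 h (−0.84 ± 0.14, adjusted p = 1.6e-06). Ftx passed at no time. Of all 9 members among the 57 that hold a miRNA gene, 6 rose and 0 fell at 1 h, 4 rose and 2 fell at 2 h, and 2 rose and 3 fell at 4 h. The other falls were those of Gm26551 at 2 and 4 h and of 9330111N05Rik at 4 h (−0.85, adjusted p = 1.9e-06).

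The Snhg transcripts, named as snoRNA hosts, rose at 2 and 4 h. The snoRNAs in these introns guide the chemical modification of ribosomal and small nuclear RNAs. Of the 6 Snhg hosts among the 57 (Snhg1, Snhg4, Snhg5, Snhg6, Snhg7, Snhg12), 5 rose at 1 h and all 6 at 2 and 4 h, with median log2 changes of 0.64, 1.57 and 1.42. Of the other members among the 57 with a snoRNA gene in M21, 2700038G22Rik (Snord93) rose at all 3 times, by 1.77, 2.04 and 1.78, and 2900076A07Rik passed at no time (0.00, 0.06 and −0.32). Among the Snhg hosts, Snhg4 had the highest log2 change at each time. It was at 127, 158, 136 and 65.1 normalized counts at 0 h, 368, 356, 401 and 417 after 1 h, 662, 746, 686 and 652 after 2 h, and 751, 724, 801 and 632 after 4 h, with log2 changes of 1.73 ± 0.18, 2.56 ± 0.18 and 2.64 ± 0.18 (limma adjusted p of 1.3e-11 or less). Snhg12 rose by 1.00 ± 0.18, 1.92 ± 0.18 and 2.04 ± 0.18, and at 1 h its libraries overlapped those at 0 h. Snhg1 rose by 0.69 ± 0.13, 1.37 ± 0.13 and 1.28 ± 0.13. Snhg5 did not pass at 1 h and rose at 2 h (0.77 ± 0.15) and 4 h (1.35 ± 0.15). Snhg6 and Snhg7 rose at 2 and 4 h by 1.22 to 1.78, and their 1 h calls were lost without WT library 4 at 0 h (log2 0.27 and 0.31, limma adjusted p = 0.23 for both). That library was the lowest of its group for all 6 hosts except Snhg12, for which it was second lowest.

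The nuclear lncRNAs did not move as 1 group. Neat1 was at 627, 615, 1015 and 929.9 normalized counts in WT libraries at 0 h, 1455, 1179.6, 908 and 889.5 after 1 h, 269, 266, 408 and 403 after 2 h, and 163, 186, 174 and 146 after 4 h. It fell at 2 h (log2 −1.24 ± 0.28, limma adjusted p = 0.00014) and 4 h (−2.21 ± 0.28, adjusted p = 9.6e-10), with no overlap between these libraries and those at 0 h. Malat1, the most abundant of these transcripts after Gm26870, was at 6468 to 8438 normalized counts at 4 h and 9364 to 11125 at 0 h, and fell at 4 h alone (−0.51 ± 0.17, adjusted p = 0.0071). Pvt1, a lncRNA downstream of Myc, was at 1580.4 to 2079 normalized counts at 0 h, 3152 to 3775 after 1 h, 5419 to 9834 after 2 h and 4564 to 5984 after 4 h. It rose by 1.02 ± 0.16, 2.09 ± 0.16 and 1.55 ± 0.16 on the log2 scale (limma adjusted p of 3.4e-07 or less). Myc itself, the nearest coding gene with a start 52595 bases away, rose by 2.75, 3.01 and 1.86.

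Among members outside the lists of hosts and nuclear lncRNAs, Gm20645 and RP24-312B12.1 rose most. Neither had an M21 entry, so small RNA genes within them could not be looked for. Gm20645 was at 90.6 to 140.3 normalized counts in WT libraries at 0 h, 1362 to 2205 after 1 h, 2974 to 4257 after 2 h and 1001 to 1404 after 4 h, a log2 change of 3.89 ± 0.16, 4.99 ± 0.16 and 3.38 ± 0.16. RP24-312B12.1 came later. It was at 13.1, 9.4, 13.4 and 29.5 normalized counts at 0 h, 15.3, 25.3, 14.1 and 13.6 after 1 h, 250.1, 208, 227 and 308 after 2 h, and 391, 380.4, 567 and 364 after 4 h. It did not pass at 1 h and rose by 3.95 ± 0.26 after 2 h and 4.72 ± 0.26 after 4 h. Its libraries at 0 h held 8 to 29 reads each, so these changes rest on few reads in the denominator. Gm26745 was at 191 to 228 normalized counts at 0 h, 844 to 1033 after 1 h, 599.7 to 899.9 after 2 h and 202 to 264 after 4 h. It rose at 1 and 2 h and did not pass at 4 h, when 2 of the 4 libraries lay above the 0 h range.

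The deepest falls among the 57 at 4 h were those of RP23-45G16.5 (Lockd in M21, chr6:134929092-134956798, plus strand), a lncRNA 8691 bases from the start of the cell cycle inhibitor gene Cdkn1b, and Gm26771, an antisense transcript whose exons overlap Sfrp2. RP23-45G16.5 was at 409.7, 325, 512 and 492 normalized counts in WT libraries at 0 h, 134, 98.4, 104 and 86.8 after 1 h, 34.9, 38.0, 37.0 and 46.3 after 2 h, and 61.3, 61.1, 57.0 and 50.4 after 4 h. All restimulated libraries lay below all untreated ones, with log2 changes of −2.03 ± 0.20, −3.43 ± 0.20 and −2.88 ± 0.20. Cdkn1b changed by −1.09, −3.02 and −3.39. Gm26771 had log2 changes of −0.98 ± 0.23, −2.40 ± 0.23 and −2.91 ± 0.23. 9330175E14Rik, whose exons overlap the opposite strand of Nlrc5, a regulator of MHC class I genes, had log2 changes of −0.66 ± 0.16, −0.95 ± 0.16 and −2.42 ± 0.16. 4933406I18Rik, which starts 120 bases from the phosphodiesterase gene Pde3b on the other strand, had log2 changes of −1.18 ± 0.22, −2.19 ± 0.22 and −1.52 ± 0.22. Fam169b, listed as a lincRNA in the file and as protein-coding in M21, rose at 1 h (0.62 ± 0.18) and fell at 4 h (−1.82 ± 0.18).

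**Figure D2:**
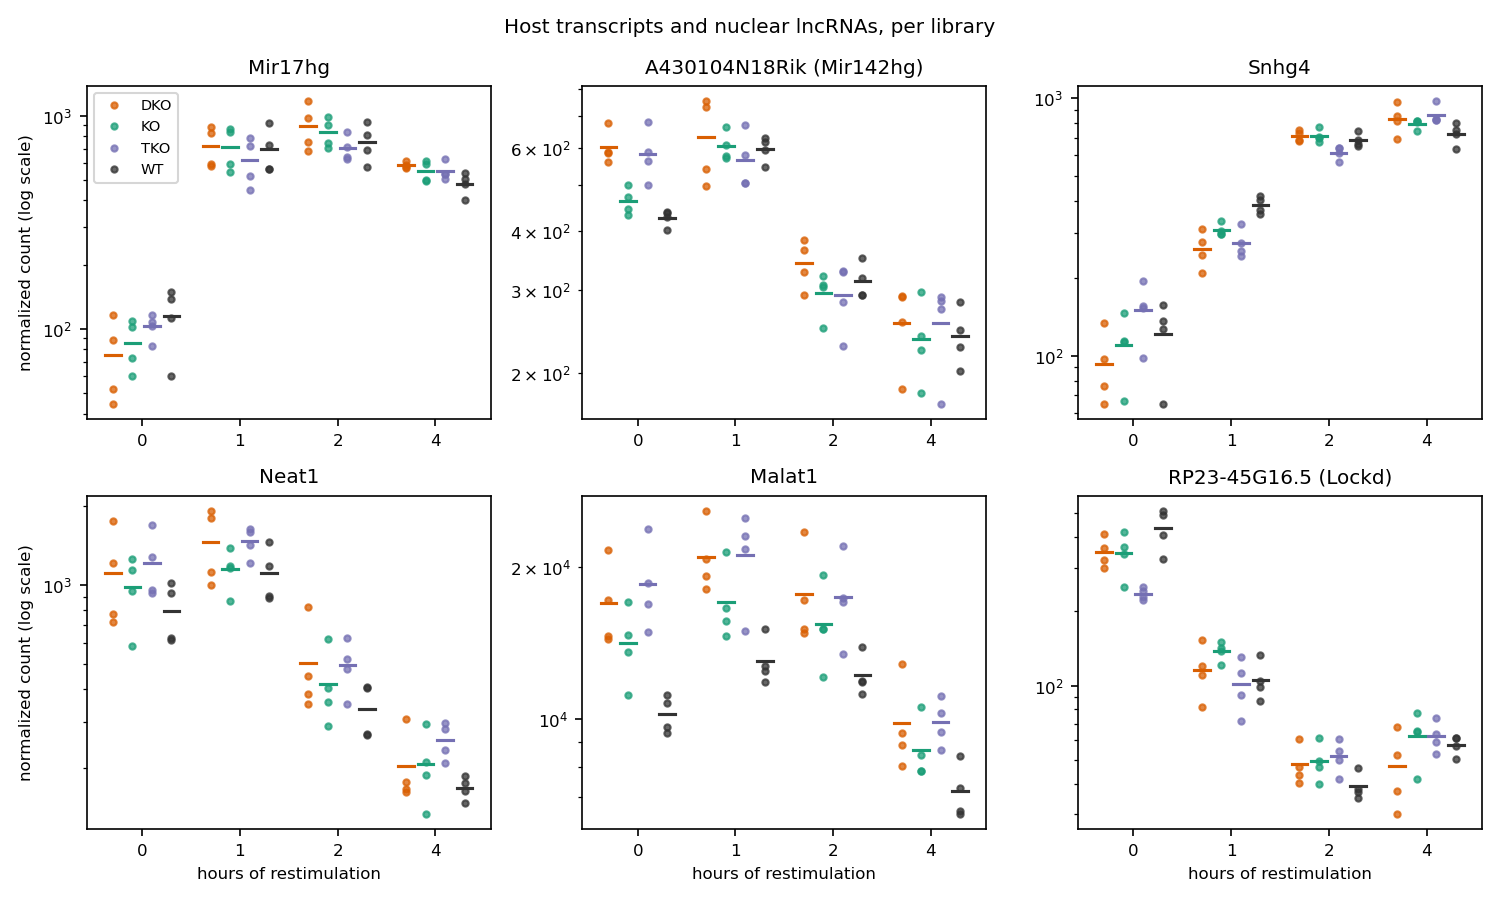
Normalized counts (log axis) of 6 members by hours of restimulation, with DKO, KO, TKO and WT cells from left to right at each time. Points are libraries (4 per group) and bars are group means. Mir17hg and Snhg4 are higher at 2 h than at 0 h in every genotype, and Neat1 and RP23-45G16.5 are lower.

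Knockout and WT cells were then compared at each time, which asks how loss of the RNA-binding proteins changed these transcripts. The 3 knockouts share the same WT libraries at each time, so their results are not independent of each other. In DKO cells 9 of 57 members passed at 0 h (7 higher, 2 lower; background 7.61% of all tested genes), 8 after 1 h (4 higher, 4 lower; 8.2%), 7 after 2 h (5 higher, 2 lower; 9.47%) and 3 after 4 h (2 higher, 1 lower; 5.38%). In KO cells 2 passed at 0 h (2 higher; 1.34%), 4 after 1 h (4 higher; 2.16%), 6 after 2 h (5 higher, 1 lower; 5.92%) and 12 after 4 h (9 higher, 3 lower; 33.1%). In TKO cells 23 passed at 0 h (15 higher, 8 lower; 37.2%), 21 after 1 h (11 higher, 10 lower; 31.5%), 15 after 2 h (9 higher, 6 lower; 36.5%) and 18 after 4 h (14 higher, 4 lower; 43.7%). As shares of the 57 the TKO counts were 40.4%, 36.8%, 26.3% and 31.6%, beside 35.5%, 30.8%, 32.7% and 41.8% among genes of like abundance. Of the 57, 23 passed in no knockout at any time. The small changes below depend on scaling: the median log2 change of all genes was −0.04 here and 0.23 with the deposited scaling in DKO cells at 0 h, 0.00 and −0.23 in TKO cells at 1 h, and 0.22 and −0.05 in KO cells at 4 h. Without WT library 4 at 0 h, 14 members passed in DKO and 4 in KO cells at 0 h. At the other times, 5 passed in DKO cells at 1 h without DKO library 2, WT library 3 or WT library 4, 4 after 2 h without DKO library 2, and 6 after 4 h without DKO library 4. In KO cells the 0 h count was 1 without KO library 1 or 2 or WT library 1, 2 or 3, and the 1 h count was 1 without KO library 2 or WT library 3 or 4 and 2 without KO library 4 or WT library 2.

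**Figure D3:**
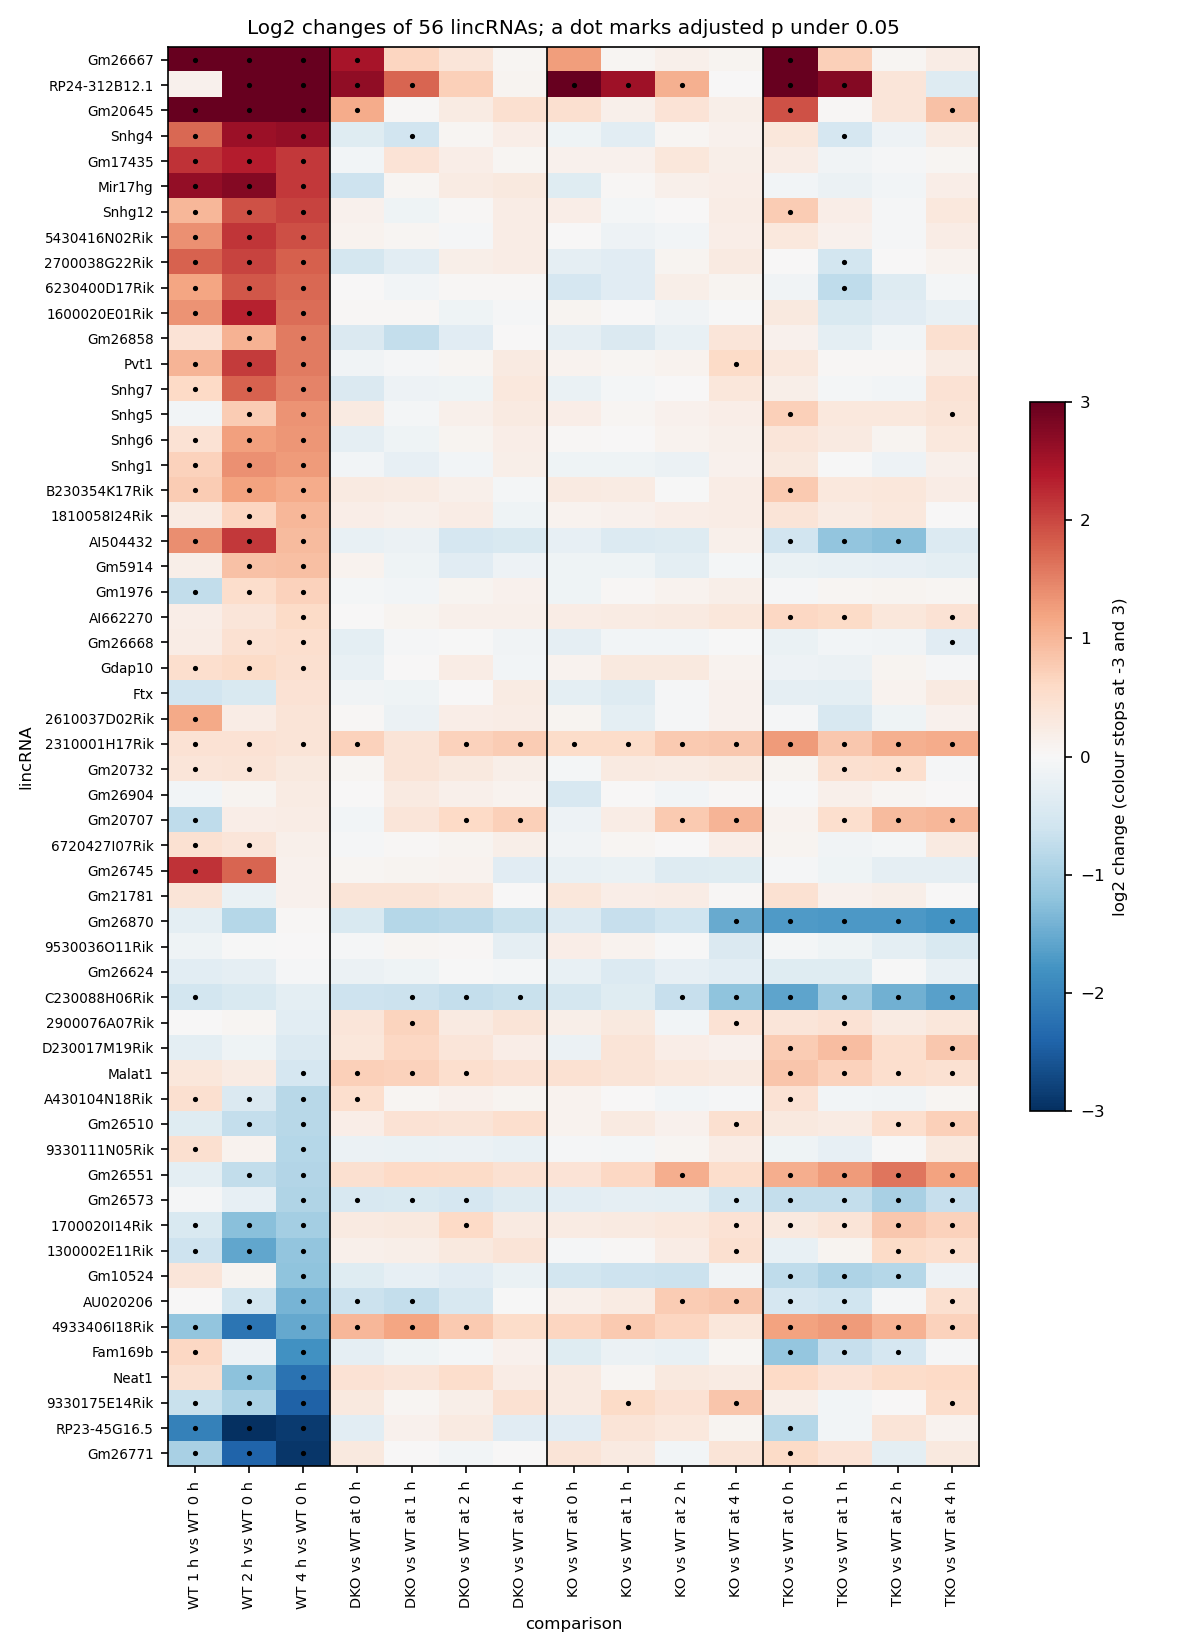
Log2 changes of 56 members (the 57 without Xist; rows) in 15 comparisons (columns: WT at 1, 2 and 4 h against 0 h, then DKO, KO and TKO against WT at each time), with red higher and blue lower; a dot marks limma adjusted p under 0.05. Members are sorted by their WT change at 4 h, from 5.57 for Gm26667 to −2.91 for Gm26771.

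RP24-312B12.1 was the member that differed most before restimulation, in all 3 knockouts. At 0 h it was at 132, 58.8, 106 and 118 normalized counts in DKO, 112, 181, 121 and 145 in KO, and 187, 236, 157 and 199.6 in TKO libraries, against 13.1, 9.4, 13.4 and 29.5 in WT libraries. No knockout library overlapped a WT one. The WT libraries held 11, 8, 9 and 29 reads, so the differences at 0 h rest on few reads in the reference. The log2 difference from WT was 2.65 ± 0.26 in DKO, 3.12 ± 0.26 in KO and 3.61 ± 0.26 in TKO cells (limma adjusted p = 3e-11, 2.6e-13 and 1.1e-16). At 1 h it was still higher, by 1.74 ± 0.26, 2.54 ± 0.26 and 2.76 ± 0.26. At 2 h it passed in KO cells alone (1.07 ± 0.26, adjusted p = 0.0055), and at 4 h in none, where libraries held 395 to 490.1 normalized counts in DKO, 332 to 531 in KO, 275 to 439.8 in TKO and 364 to 567 in WT cells. The change between 0 and 4 h was smaller than in WT, with log2 differences of −2.56 ± 0.36 in DKO, −3.10 ± 0.36 in KO and −3.98 ± 0.36 in TKO cells (limma adjusted p = 1.9e-05, 1.2e-07 and 1.7e-11).

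Gm26667 (Mir155hg) and Gm20645 were higher in DKO and TKO cells at 0 h. Gm26667 was at 62.6, 27.7, 88.0 and 29.7 normalized counts in DKO, 75.6, 139.7, 51.6 and 75.2 in TKO and 18, 16.4, 17.4 and 27.0 in KO libraries, against 3.6, 3.5, 14.9 and 15.3 in WT libraries. Its log2 difference was 2.47 ± 0.46 in DKO (limma adjusted p = 0.00019), 3.24 ± 0.46 in TKO (adjusted p = 2.3e-07) and 1.25 ± 0.46 in KO cells (adjusted p = 0.23). The DKO call was lost with limma voom on recovered reads (log2 2.55, adjusted p = 0.19). In KO cells at 0 h, the result for the 4 miRNA hosts (Gm26667, Mir17hg, A430104N18Rik and Ftx) depended on scaling. Here 0 of the 4 passed, with a highest log2 difference of 1.25. With the deposited scaling 1 passed as higher, and the highest log2 difference was 1.5. Gm20645 was at 239.8, 202, 297 and 218 normalized counts in DKO and 434, 432, 427 and 372 in TKO libraries, against 108, 105, 140.3 and 90.6 in WT libraries, a log2 difference of 1.10 ± 0.16 and 1.91 ± 0.16 (adjusted p = 1.8e-06 and 3.9e-14). In KO cells it was at 143 to 162, a difference that did not pass. From 1 h on Gm26667 passed in no knockout. Gm20645 was higher again in TKO cells at 4 h, at 1941, 1899.7, 2422 and 2201 normalized counts against 1001, 1137, 1404 and 1093 in WT libraries (0.87 ± 0.16, adjusted p = 2.4e-05). The change of Gm26667 between 0 and 4 h was smaller in TKO than in WT cells, with a log2 difference of −3.03 ± 0.64 (adjusted p = 0.0014, but 0.15 with limma voom), and that of Gm20645 was smaller with −1.04 ± 0.23 (adjusted p = 0.0018).

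2310001H17Rik (chr6:129208412-129238725, minus strand) was higher than in WT in every knockout comparison except DKO cells at 1 h. It lies 36711 bases from the start of Cd69, an early activation marker, on the same strand. At 4 h it was at 746, 643, 588 and 444 normalized counts in DKO, 543, 687, 592 and 652 in KO and 731, 822, 681 and 816 in TKO libraries, against 412, 339.7, 419 and 263 in WT libraries. The groups did not overlap, and the log2 difference was 0.75 ± 0.13, 0.80 ± 0.13 and 1.11 ± 0.13 (limma adjusted p = 0.00015, 1.7e-05 and 3.3e-09). In TKO cells it was higher at all 4 times, by 0.80 to 1.27, and in KO cells by 0.54 to 0.80. In DKO cells the difference passed at 0, 2 and 4 h. The KO calls at 0 and 1 h were lost when KO library 1 at 0 h (log2 0.50, adjusted p = 0.092) or WT library 3 at 1 h (0.44, adjusted p = 0.12) was left out, and without 4 and 2 other single libraries. Cd69 itself rose in WT cells by 4.03, 3.29 and 1.40 at 1, 2 and 4 h, where 2310001H17Rik rose by 0.44, 0.43 and 0.39, calls lost at 1 h without WT library 2 (0.33, adjusted p = 0.067) and at 4 h without WT library 3 (0.30, adjusted p = 0.075). Between genotypes Cd69 passed in TKO cells alone, higher at 0 h (0.90) and lower at 2 h (−0.64).

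Gm26551 (chr11:51949882-52269514, minus strand), whose annotated span reaches into Tcf7 on the same strand without shared exons, was higher in TKO cells at all 4 times. At 2 h it was at 1059, 1189, 1249 and 769 normalized counts in TKO and 783, 775, 529 and 881 in KO libraries, against 282, 290.3, 505 and 328 in WT libraries. The groups did not overlap, with log2 differences of 1.62 ± 0.25 in TKO (limma adjusted p = 1.5e-06) and 1.09 ± 0.25 in KO cells (adjusted p = 0.004). Over the 4 times the TKO difference was 1.08, 1.27, 1.62 and 1.22. Tcf7, a transcription factor of naive and memory-like T cells, was higher in TKO cells by 1.79, 1.66, 2.26 and 2.67, and also in DKO (0.88 to 1.24) and KO cells (0.89 to 1.79) at every time. In WT cells both fell at 2 and 4 h, with log2 changes of −0.74 and −0.89 for Gm26551 and −1.07 and −1.91 for Tcf7. Without WT library 3 at 0 h the calls of Gm26551 were lost (−0.43 and −0.57, adjusted p = 0.14 and 0.052).

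4933406I18Rik and its neighbour Pde3b were higher together in the knockouts. At 1 h 4933406I18Rik was at 352, 341, 302 and 356 normalized counts in DKO and 464, 334, 369 and 306 in TKO libraries, against 192, 148, 119.5 and 143 in WT libraries. The log2 difference was 1.18 ± 0.22 in DKO and 1.29 ± 0.22 in TKO cells (limma adjusted p = 0.00013 and 6.1e-06). Pde3b was higher by 1.10 and 1.20 in the same comparisons. In TKO cells both passed at all 4 times, and in DKO cells both passed at 0, 1 and 2 h. The TKO call of 4933406I18Rik at 4 h (0.69) was lost with the deposited scaling (0.43, adjusted p = 0.11) and with median-of-ratios scaling (0.52, adjusted p = 0.053), and its DKO call at 0 h (0.99) when the fit held the groups compared alone (adjusted p = 0.15). The DKO call of 4933406I18Rik at 2 h was lost without WT library 1 (log2 0.62, adjusted p = 0.09). In KO cells it passed at 1 h alone (0.79 ± 0.22, adjusted p = 0.033), a call lost without 6 of 8 libraries in turn (adjusted p = 0.16 without WT library 3).

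Malat1 was higher in DKO and TKO cells. At 0 h it was at 17189, 14417, 21625 and 14622 normalized counts in DKO and 18622, 23804, 16931 and 14834 in TKO libraries, against 9646, 9364, 10760.4 and 11125 in WT libraries, with no overlap. The log2 difference was 0.71 ± 0.17 in DKO and 0.84 ± 0.17 in TKO cells (limma adjusted p = 0.0029 and 7.6e-05). At 1 h it was 0.68 ± 0.17 in both. The DKO call at 2 h and the TKO calls at 2 and 4 h were lost under another scaling, with log2 values of 0.45, 0.41 and 0.29 under median-of-ratios scaling (limma adjusted p = 0.097, 0.053 and 0.2), and also without DKO library 2 (0.37, adjusted p = 0.2), TKO library 4 (0.38, adjusted p = 0.083) and TKO library 3 (0.40, adjusted p = 0.069). With the scaling used here, Malat1 passed at no time in KO cells, and Neat1 passed in no knockout at any time. These absences depend on scaling at 0 h. Of Malat1, Neat1, Pvt1 and Ftx, 1 was called higher in TKO and 0 in KO cells at 0 h here. With the deposited scaling these counts were 3 and 1.

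Of the 6 Snhg hosts, 2 passed as higher in TKO cells at 0 h, Snhg5 (0.72 ± 0.15, limma adjusted p = 0.00023) and Snhg12 (0.77 ± 0.18, adjusted p = 0.00083). Snhg5 was at 207 to 228 normalized counts in TKO and 94.6 to 153 in WT libraries. Its call at 4 h (0.38 ± 0.15, adjusted p = 0.04) was lost with 7 of 8 libraries left out in turn (0.33, adjusted p = 0.11 without WT library 1) and with both other scalings (0.13 and 0.21). Snhg4 was lower at 1 h in DKO (−0.58 ± 0.18, adjusted p = 0.036) and TKO cells (−0.50 ± 0.18, adjusted p = 0.031), calls lost without 4 and 5 of 8 libraries in turn (adjusted p = 0.15 without DKO library 1 and 0.089 without TKO library 2). Mir17hg and Ftx passed in no knockout. A430104N18Rik (Mir142hg) was higher at 0 h in DKO (0.50 ± 0.14) and TKO cells (0.44 ± 0.14), calls lost without DKO library 3 (0.44, adjusted p = 0.12) and without TKO library 2 (0.36, adjusted p = 0.063). Pvt1 was higher in KO cells at 4 h (0.56 ± 0.16, adjusted p = 0.0057), but not with the deposited scaling (0.29, adjusted p = 0.22).

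Members that were lower in the knockouts included a group on chromosome 4 beside zinc finger genes. C230088H06Rik (chr4:147018235-147492201, minus strand) was at 120.5, 79.2, 106 and 84.5 normalized counts in TKO libraries at 4 h and 121, 141, 145 and 109 in KO libraries, against 314, 322, 276 and 282 in WT libraries. The groups did not overlap, and the log2 difference was −1.62 ± 0.21 in TKO and −1.21 ± 0.21 in KO cells (limma adjusted p = 1.8e-08 and 3.3e-05). In TKO cells it was lower at all 4 times, by 1.07 to 1.62. In DKO cells the calls at 1 and 2 h (−0.64 and −0.71) were lost without 4 and 3 of 8 libraries in turn (adjusted p = 0.26 and 0.09 without library 2 of each DKO group), and in KO cells the call at 2 h (−0.69) without 6 of 8 (adjusted p = 0.14 without KO library 3). Its DKO call at 4 h (−0.68 ± 0.21, adjusted p = 0.043) had overlapping libraries and was lost without 7 of 8 libraries in turn (−0.51, adjusted p = 0.25 without DKO library 3). Gm26573, which starts 3109 bases from Rex2, was also lower in TKO cells at all 4 times, by 0.70 to 0.96, and in KO cells at 4 h (−0.55 ± 0.14, adjusted p = 0.0027). Its DKO calls at 0, 1 and 2 h (−0.47, −0.45 and −0.51) were lost without single libraries (adjusted p = 0.13, 0.2 and 0.077 at the weakest). Gm26624, on the plus strand of the same stretch, passed in no comparison with WT.

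Gm20707 (chr4:147782319-147809840, minus strand) lies in that stretch too and went the other way. Its exons overlap Zfp984 on the same strand. At 4 h it was at 419.8, 381, 396 and 392 normalized counts in DKO, 523, 465, 404 and 586 in KO and 406, 544, 541 and 455 in TKO libraries, against 244, 221, 267 and 239.7 in WT libraries. No knockout library overlapped a WT library. The log2 difference was 0.71 ± 0.15, 1.01 ± 0.15 and 0.99 ± 0.15 (limma adjusted p = 0.00092, 9.1e-07 and 3.3e-07). At 0 h it passed in no knockout. Its change between 0 and 4 h was larger than in WT in KO cells by 1.17 ± 0.21 (adjusted p = 0.0004) and in TKO cells by 0.90 ± 0.21 (adjusted p = 0.003). Both of these calls were lost with the deposited scaling (0.64 in KO and 0.58 in TKO cells, adjusted p = 0.053 and 0.068). In DKO cells the difference of 0.79 ± 0.21 (adjusted p = 0.042) was lost with 11 of 16 libraries left out in turn (0.68, adjusted p = 0.16 without DKO library 3 at 0 h) and with 5 other settings. Zfp984, whose reads it may share, was higher at 4 h by 0.73, 1.02 and 1.11.

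AI504432 (chr3:107039504-107054347, plus strand), which starts 3335 bases from the potassium channel gene Kcna3, was lower in TKO cells at 0, 1 and 2 h. At 2 h it was at 553, 829.6, 546 and 978 normalized counts in TKO libraries, against 1518, 1548, 1884 and 1818 in WT libraries. The groups were far apart, with a log2 difference of −1.26 ± 0.20 (limma adjusted p = 2.5e-06), and at 1 h it was −1.17 ± 0.20 (adjusted p = 1.2e-05). Kcna3 was lower by 1.34 and 1.07 at these times. At 0 h the log2 difference of AI504432 was −0.57 (adjusted p = 0.022), a call lost without 2 of 8 libraries in turn. Fam169b was lower in TKO cells at 0 h, at 1382, 1173, 1099.9 and 1428 normalized counts against 2736, 2521, 3264 and 2775 in WT libraries (−1.15 ± 0.18, adjusted p = 1.4e-06), and its change between 0 and 4 h was less negative than in WT by 1.13 ± 0.25 (adjusted p = 0.0026). It was also lower at 1 h (−0.69, adjusted p = 0.0028) and 2 h (−0.51, adjusted p = 0.021). The 2 h call was lost without 4 of 8 libraries in turn. RP23-45G16.5 (Lockd) was lower in TKO cells at 0 h alone (−0.86 ± 0.20, adjusted p = 0.00056), at 224 to 252 normalized counts against 325 to 512 in WT libraries. Gm26870 was lower in TKO cells at all 4 times, by 1.70 to 1.80, but its libraries varied widely, from 3565 to 19974 normalized counts in TKO and from 7100.2 to 84842 in WT cells. Its exons overlap those of 6 genes on the opposite strand. The call at 2 h was lost when the fit held the groups compared alone.

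AU020206 was higher in KO cells after restimulation. At 4 h it was at 1987, 1639, 1704 and 1955 normalized counts in KO libraries, against 1098, 1003, 989 and 1021 in WT libraries, without overlap (log2 0.82 ± 0.18, limma adjusted p = 0.001). At 2 h the difference was 0.77 ± 0.18 (adjusted p = 0.0056), a call lost without WT library 4 (0.63, adjusted p = 0.05). At 0 h it was lower than in WT in DKO (−0.64 ± 0.18, adjusted p = 0.021) and TKO cells (−0.51 ± 0.18, adjusted p = 0.025), with overlapping libraries, and these calls were lost without DKO library 3 (−0.47, adjusted p = 0.19) and WT library 3 (−0.40, adjusted p = 0.096). At 1 h it was lower in TKO cells (−0.60, adjusted p = 0.0097), a call kept without each library in turn. The DKO call at 1 h (−0.72, adjusted p = 0.0075) was lost without DKO library 2 (−0.52, adjusted p = 0.099). In TKO cells at 4 h AU020206 was higher (0.48, adjusted p = 0.031), a call lost without 5 of 8 libraries in turn and with both other scalings. 9330175E14Rik was also higher in KO cells at 4 h (0.84 ± 0.16, adjusted p = 0.00012). 1700020I14Rik was higher in TKO cells at all 4 times, by 0.30 to 0.81, and its 0 h call was lost without WT library 2 (0.21, adjusted p = 0.12) and its 1 h call with the deposited scaling.

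**Figure D4:**
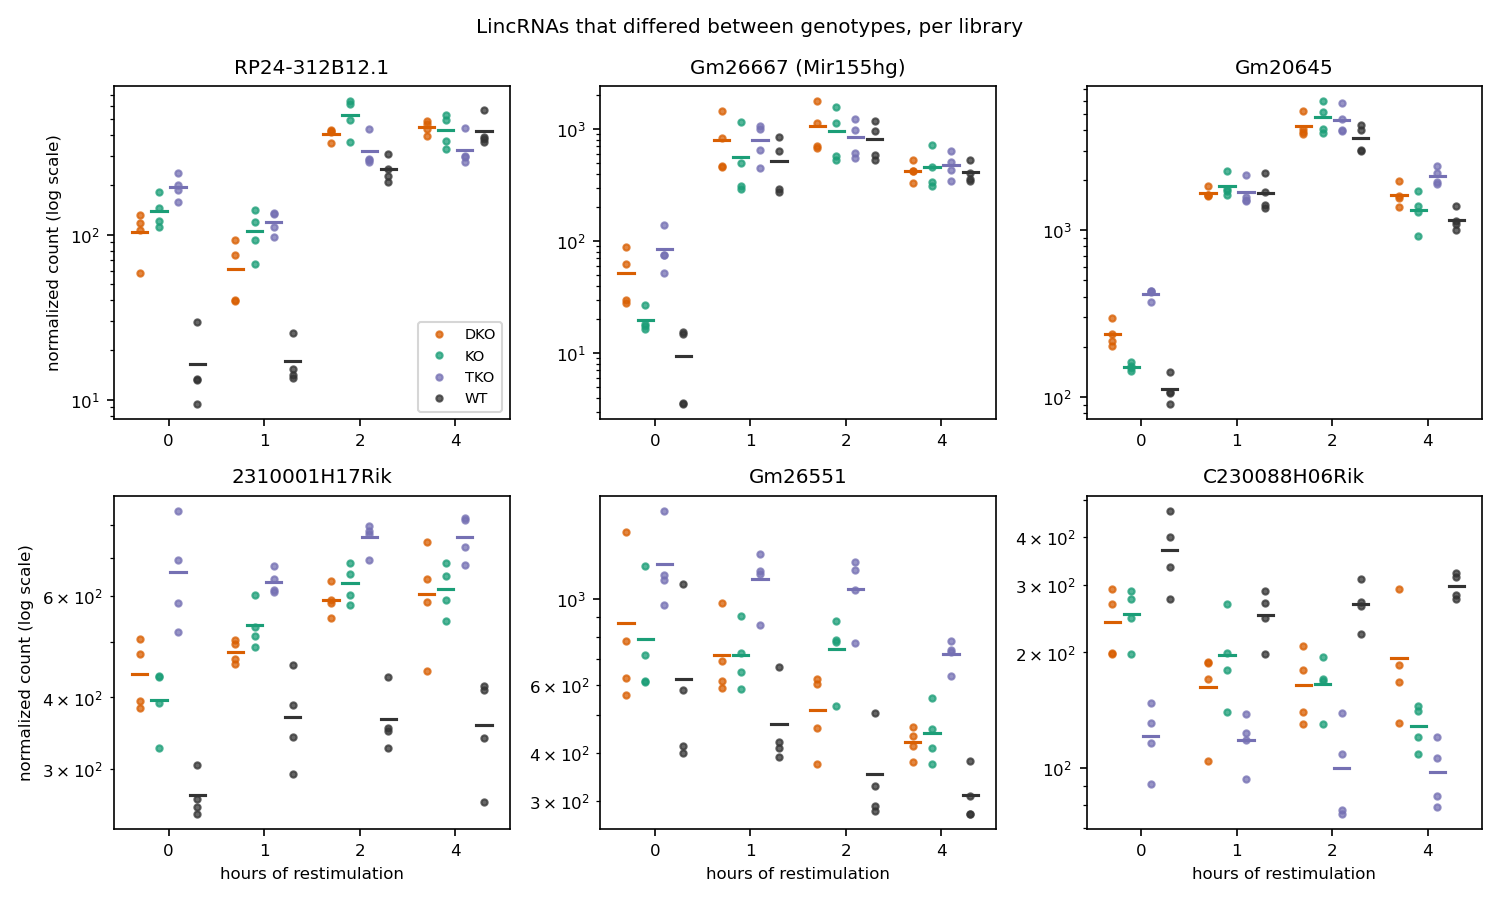
Normalized counts (log axis) of 6 members by hours of restimulation, with DKO, KO, TKO and WT cells from left to right at each time. Points are libraries (4 per group) and bars are group means. RP24-312B12.1 is apart from WT in all knockouts at 0 and 1 h, while 2310001H17Rik and C230088H06Rik are apart from WT in TKO cells at every time.

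TKO cells were set against the other knockouts to ask whether losing all 3 genes differed from losing some. Against DKO cells, 14 of 57 members passed at 0 h (11 higher, 3 lower; background 14.8% of tested genes) and 4 after 4 h (3 higher, 1 lower; 12.4%). Against KO cells, 13 passed at 0 h (9 higher, 4 lower; 20.2%) and 1 after 4 h (2.59%). At 0 h Gm20645 was higher in TKO than in DKO cells by 0.81 ± 0.16 (limma adjusted p = 0.0005) and than in KO cells by 1.44 ± 0.16 (adjusted p = 2.8e-09). It was also the 1 member called against KO cells at 4 h (0.69 ± 0.16, adjusted p = 0.0062), a call lost without KO library 2 (0.53, adjusted p = 0.078). C230088H06Rik was lower in TKO than in DKO cells by 0.97 ± 0.21 at 0 h and 0.94 ± 0.21 after 4 h (adjusted p = 0.0012 and 0.0018), and than in KO cells by 1.05 ± 0.21 at 0 h. Fam169b was lower by 0.88 ± 0.18 and 0.79 ± 0.18 against DKO and KO cells at 0 h. RP24-312B12.1 was higher in TKO than in DKO cells at 0 h by 0.95 ± 0.26 (adjusted p = 0.0096), lost without DKO library 2 (0.70, adjusted p = 0.078). Gm26667 was higher in TKO than in KO cells at 0 h by 2.00 ± 0.46 (adjusted p = 0.0018), lost with limma voom (1.98, adjusted p = 0.098). At 4 h Gm26551 and 9330111N05Rik were higher in TKO than in DKO cells by 0.76 and 0.51, calls lost without 7 and 3 of 8 libraries in turn (adjusted p = 0.11 without DKO library 4 and 0.097 without TKO library 1). All 6 Snhg hosts were among the 11 members higher in TKO than in DKO cells at 0 h, by 0.38 to 0.70, but with the deposited scaling the values were 0.16 to 0.49 and 0 of 6 passed with limma. Each of these calls was also lost without at least 1 library, at most at adjusted p = 0.23 for Snhg7 without TKO library 4. The 0 h counts were 9, 9 and 7 against DKO cells without DKO library 4, TKO library 3 or TKO library 4, and 8 against KO cells without KO library 1, and the 4 h count against DKO cells was 2 without DKO library 2 or TKO library 1 and 1 without DKO library 4.

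The change from 0 to 4 h differed from WT in 2 of 57 members in DKO cells (1 above WT, 1 below; background 0.818%), 2 in KO cells (1 and 1; 2.19%) and 7 in TKO cells (4 and 3; 6.62%). In TKO cells these were RP24-312B12.1, Gm26667 and Gm20645 below WT, and Fam169b, AU020206 (0.99 ± 0.26, limma adjusted p = 0.011, lost with the deposited scaling at 0.67), RP23-45G16.5 (0.96 ± 0.28, adjusted p = 0.023, lost at 0.064 without WT library 3 at 0 h and with the deposited scaling) and Gm20707 (lost with the deposited scaling) above it. Of these 4, Fam169b, AU020206 and RP23-45G16.5 fell in WT cells between 0 and 4 h. Non-additivity, the TKO effect minus the sum of the DKO and KO effects, passed at 0 h in 1 member (background 0.836%). This was RP24-312B12.1 at −2.17 ± 0.36 (adjusted p = 0.00041), whose effects of 2.65 and 3.12 in DKO and KO cells summed to more than the 3.61 in TKO cells. The call was lost when the fit held the groups compared alone (adjusted p = 0.053). Without WT library 4 at 0 h, 7 members passed in DKO cells, 6 in KO cells and 7 for non-additivity, which also passed in 2 to 4 members without KO library 3, DKO library 2 or TKO library 2 at 0 h. At 4 h it passed in 0 of 57 members with limma (background 0.167%), with 6 at an unadjusted p under 0.05.

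Members and their nearest coding genes were set side by side for the 48 of the 57 whose neighbour was tested. In WT cells the member passed in 29, 31 and 35 pairs at 1, 2 and 4 h, and the neighbour in 21, 26 and 27. Both passed in 14 pairs at 1 h, 22 after 2 h and 23 after 4 h, in the same direction in 12, 19 and 20 of them. In TKO cells against WT the member passed in 21, 18, 15 and 17 pairs at 0, 1, 2 and 4 h, and the neighbour in 22, 17, 21 and 25. Both passed in 13, 8, 8 and 9 pairs, in the same direction in 11, 6, 6 and 9. How often other pairs of genes share a direction was not tested, so no effect of position is read from these counts. Pairs were not all independent measurements, since some overlap in exons. 4933406I18Rik with Pde3b, AI504432 with Kcna3, Pvt1 with Myc and RP23-45G16.5 with Cdkn1b changed in the same direction in WT cells at 2 and 4 h. Neat1 and Frmd8 both fell at 4 h (−2.21 and −3.10). Snhg5 and Zfp949 went opposite ways there, with 1.35 against −1.55.

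**Figure D5:**
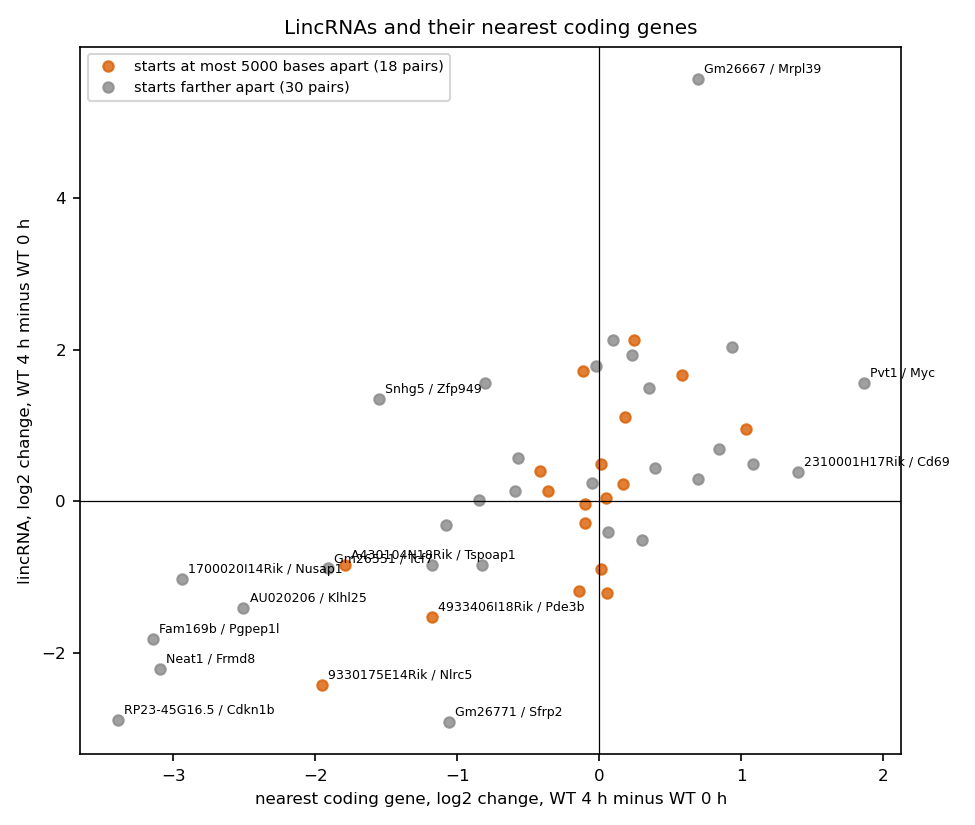
Log2 change from 0 to 4 h in WT cells of 48 members (vertical) against that of their nearest coding gene (horizontal), 1 point per pair, with the 18 pairs whose starts lie at most 5000 bases apart in orange and the other 30 in grey. RP23-45G16.5 with Cdkn1b lies at the lower left (−2.88 and −3.39) and Pvt1 with Myc at the upper right (1.55 and 1.86).

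The 23 members with a mean under 100 are described by level alone. Of these, 10 had their highest group at 0 h, 2 after 1 h, 4 after 2 h and 7 after 4 h, and by genotype 7 in DKO, 4 in KO, 3 in TKO and 9 in WT cells. 1110002J07Rik averaged 194.6 ± 92.7 normalized counts (SD, n = 4) in WT cells at 2 h and 7.3 ± 2.5 at 0 h. A630023P12Rik averaged 3.6 ± 1.7 in WT cells at 4 h and 112.6 ± 18.4 at 0 h, and Gm5544 10.2 ± 5.3 and 86.2 ± 42.2. Gm26692, the nearest coding gene of which is the transcriptional repressor Gfi1, averaged 202.0 ± 56.7 in KO cells at 4 h, and 147.4 ± 29.1 after 4 h and 34.3 ± 3.3 at 0 h in WT cells. Gm17382 averaged 140.5 ± 15.5 in WT cells at 4 h and 20.6 ± 4.5 at 0 h. 2810008D09Rik (Snhg20), also a snoRNA host, averaged 99.7 ± 29.2 in WT cells at 4 h and 88.1 ± 42.2 at 0 h. A330023F24Rik, host of miR-29b and miR-29c, averaged 54.5 ± 15.1 in WT cells at 4 h and 132.7 ± 54.3 at 0 h. Gm26825 rested on single libraries: its highest group, KO at 4 h, held 352.8, 23.1, 27.8 and 14.9 normalized counts.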

How the data were processed

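RNA sequencing of 64 libraries was analysed, 4 for each of 4 genotypes at 4 times. Libraries were prepared from Trizol-extracted total RNA (NuGEN Universal kit, per the labels). The submitters' processing notes name GRCm38. Aligner, counting tool and strand setting: not given in the sources used here. Per the file headers, the authors deposited for each group a list of 4 normalized counts per gene and their mean (signal, in normalized counts), which chose the members. Listed values and means differed by at most 0.049%. A library number is the place of a value in its list and pairs nothing across groups. Low values gave whole reads in 100% of cases (tolerance 0.1 read), which gave the depths. Libraries of 1 group differed by more than sampling noise (chi-square 5.11 to 69.1 per degree of freedom). The labels do not say that they came from separate animals. Every group held both libraries with Xist and libraries with Y-linked reads, so no group came from 1 animal alone. The number of animals is not known, so p-values measure the spread between libraries, which may be partly technical.

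Values were rescaled by a trimmed mean of M values (trims of 30 and 5 percent) and tested as log2(value + 1), with a pseudocount of 1, in limma 3.58.1 (R 4.3.3) with trended, robust moderation. This scale understates changes of low genes. The test is the one foreseen for lists of normalized values. Genes needed 10 reads at the median depth (1.3 CPM) in 4 libraries, leaving 16140. The model had 1 mean per group (48 residual degrees of freedom), 24 contrasts and Benjamini-Hochberg adjustment over all genes tested, with calls at adjusted p under 0.05. The script was tested on simulated data. Errors beside log2 changes are SE and beside means SD. The members, lists, alternatives and rules were chosen with earlier results of these data known. Named were members of lists of nuclear lncRNAs, miRNA hosts, snoRNA hosts and immune-linked lincRNAs, and in each contrast with WT up to 4 called members in each direction whose groups did not overlap (2 in the other contrasts), with their nearest coding genes in GENCODE M21. The immune-linked list held Gm26667, Pvt1 and RP23-45G16.5 alone among the 57, described above. Members named outside that rule were chosen after their values were seen. The count model planned for recovered reads was not run, because the deposited columns are lists of normalized values. In its place limma voom on recovered reads, and a term for Y-linked reads, were added after seeing the data. Of the B cell markers, 1 is not reported here and was left out of the B cell sums.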

Additional observations from a re-analysis of the deposited data

Results flagged for a closer look

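In 8 of 209 groups of 4 values, apart from Xist, 1 library stood far from the other 3, and chance alone gives about 1 in 20 groups. RP24-312B12.1 was at 567 normalized counts in 1 WT library at 4 h, where the others held 364 to 391, and at 25.3 in 1 WT library at 1 h, where the others held 13.6 to 15.3. Gm20645 was at 372 in 1 TKO library at 0 h (others 427 to 434), Gm26551 at 669 in 1 WT library at 1 h (others 389 to 426) and Gm26667 at 27.0 in 1 KO library at 0 h (others 16.4 to 18). In the WT group at 0 h, Pvt1 was at 2079 in 1 library (others 1580.4 to 1649.6), and Snhg5 and Snhg7 were at 94.6 and 35.6 in 1 and the same library (others 145 to 153 and 76.4 to 79.6).

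Xist was high in a single library of each KO group, at 5827, 7754, 7445 and 5149.7 normalized counts at 0, 1, 2 and 4 h, and of each TKO group, at 7296, 9736, 7774 and 6225. These libraries lacked Y-linked reads.

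The change from 0 to 4 h differed between a knockout and WT cells in several named members, by the test of the difference itself in limma. At most 2 members in each direction are given here for each knockout. For RP24-312B12.1 the log2 difference was −2.56 in DKO, −3.10 in KO and −3.98 in TKO cells, and for Gm20707 it was 0.79 in DKO and 1.17 in KO cells. In TKO cells it was −3.03 for Gm26667, 1.13 for Fam169b and 0.99 for AU020206. RP24-312B12.1 also had a non-additive effect at 0 h, with −2.17 on the log2 scale. The DKO call of Gm20707 was lost under 16 of 23 alternatives, and its KO call with the deposited scaling. In TKO cells the call of AU020206 was lost with the deposited scaling and that of Gm26667 with limma voom. The non-additivity call was lost when the fit held the groups compared alone. No explanation of these values was tested.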

How the results depend on the processing

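No called log2 change of a named member reversed under any alternative that was run. Changes that did not pass could change sign with the scaling. In KO cells at 4 h, all 4 of Malat1, Neat1, Pvt1 and Ftx were above WT here, but 1 of 4 was with the deposited scaling. The miRNA hosts above WT there were 3 of 4 here and 0 of 4 with the deposited scaling. Of 150 named calls, 116 kept their side of the threshold under every alternative and 34 lost it under at least 1. With the deposited scaling the number of called members was 15 in DKO and 11 in KO cells at 0 h, 2 in KO cells at 1 h, 5 each for the DKO and KO differences in the change from 0 to 4 h, 2 for TKO against DKO cells at 4 h and 10 for non-additivity at 0 h. With the groups compared alone in the fit it was 5, 4 and 7 in DKO cells at 1, 2 and 4 h, 1 and 2 in KO cells at 0 and 1 h, 1 for the DKO difference, 8 and 10 for TKO against DKO cells at 0 and 4 h, 2 for TKO against KO cells at 4 h and 0 for non-additivity at 0 h. The DKO difference count was 1 without a filter on low values and 1 with limma voom. A limit of 200 on the mean gave 22 and 24 in WT cells at 1 and 2 h, and a limit of 50 gave 23 in TKO cells at 2 h and 8 for TKO against DKO cells at 4 h. Both limits change how many members are counted, and for the other settings the cause was not tested. Median-of-ratios scaling, a pseudocount of 5 and a term for Y-linked reads moved none of the 24 counts by more than 1.5 times. With each library left out in turn the counts were 29 to 33, 36 to 40 and 40 to 43 in WT cells, 6 to 14, 5 to 9, 4 to 7 and 2 to 6 in DKO cells, 1 to 4, 1 to 3, 4 to 7 and 8 to 12 in KO cells, and 21 to 25, 18 to 21, 13 to 16 and 13 to 17 in TKO cells. They were 1 to 7, 2 to 6 and 6 to 8 for the DKO, KO and TKO differences, 7 to 13 and 1 to 5 for TKO against DKO cells, 8 to 15 and 0 to 1 for TKO against KO cells, and 1 to 7 and 0 for non-additivity, at 0 and 4 h. No paired analysis was possible because the deposited lists carry no replicate numbers. Depth limits members with few reads, such as Gm26667 at 0 h in WT cells.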
